A study of Mus musculus with 27 samples.

Results

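Chemokines and interleukins were examined in NMuMG cells, an established epithelial line from the normal mouse mammary gland, during the epithelial-to-mesenchymal transition (EMT) that transforming growth factor (TGF)-β induces. All gene symbols of the deposited RNA-seq tables that name a CC chemokine (Ccl and a number), a CXC chemokine (Cxcl and a number), the CX3C chemokine Cx3cl1 or a numbered interleukin were taken, which gave 67 of the 24892 symbols. Each table lists 66 of them. Il8 stood only in the table of parental cells and Cxcl15 only in the table of infected cells, and the RefSeq gene table gives Il8 as an older name of Cxcl15. By family there were 19 CC chemokines, 13 CXC chemokines, 1 CX3C chemokine and 34 interleukins.

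RNA was sequenced from untreated cells and from cells that had received TGF-β 8 h or 24 h earlier, at a concentration that the labels give as 1 to 5 ng/ml. Parental cells gave 6 libraries, and cells infected with an irrelevant control shRNA (control) or with a lamin B1 shRNA (KD) gave 12, with 2 biological replicates per group according to the methods of the study. The infected cells, control cells included, thus carried a lentiviral shRNA that parental cells lacked. Lamin B1 ChIP-seq, which was done on a chromatin fraction enriched in euchromatin and mixed parallel ChIPs into each library, and ATAC-seq, which marks accessible chromatin, each gave 1 library per time point, with no shRNA named in the labels, so peaks had no replicate check.

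Chemokines are small secreted proteins that attract leukocytes through G protein-coupled receptors. The positions of conserved cysteines define the families, and many are encoded side by side in clusters that arose by duplication. Interleukins are a functional rather than a structural group, which includes members of the IL-1, IL-6, IL-10 and IL-17 families. Epithelial cells are known to secrete chemokines for neutrophils, monocytes and dendritic cells when NF-κB is active, and IL-11, an IL-6 family cytokine that signals through IL-11Rα and gp130 to JAK and STAT proteins, is a known product of TGF-β-treated cells.

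The chromatin of these genes enters the results below, so the promoters that bear on the genes with large changes are shown first. RefSeq promoter entries matched 46 of the 67 symbols, and no entry matched Cxcl5. The stretches below are the 250 bases before the start of each gene, written 5′ to 3′ in the direction of transcription, on the GRCm38.p6 build of RefSeq at chr5:90890995-90891244 on the plus strand for Cxcl1, at chr5:90785851-90786100 on the plus strand for Cxcl3, at chr1:83116516-83116765 on the plus strand for Ccl20 and at chr7:4778142-4778391 on the minus strand for Il11. Cxcl1 and Ccl20 are shown because they fell with TGF-β, Cxcl3 because it is a neighbour of Cxcl1 that was nearly silent, and Il11 because it rose. Capitals mark matches to the consensus of the NF-κB site in the first 3 and a match to the AP-1 motif TGANTCA in Il11.
Cxcl1: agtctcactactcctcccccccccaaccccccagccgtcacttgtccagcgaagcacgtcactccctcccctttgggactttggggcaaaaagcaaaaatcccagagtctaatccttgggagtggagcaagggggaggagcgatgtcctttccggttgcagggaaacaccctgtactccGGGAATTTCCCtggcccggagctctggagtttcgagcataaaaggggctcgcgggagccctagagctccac
Cxcl3: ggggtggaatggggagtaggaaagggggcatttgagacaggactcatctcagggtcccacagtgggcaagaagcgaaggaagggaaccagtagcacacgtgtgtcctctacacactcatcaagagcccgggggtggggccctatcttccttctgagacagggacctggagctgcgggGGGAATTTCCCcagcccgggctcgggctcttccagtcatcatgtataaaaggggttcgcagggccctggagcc
Ccl20: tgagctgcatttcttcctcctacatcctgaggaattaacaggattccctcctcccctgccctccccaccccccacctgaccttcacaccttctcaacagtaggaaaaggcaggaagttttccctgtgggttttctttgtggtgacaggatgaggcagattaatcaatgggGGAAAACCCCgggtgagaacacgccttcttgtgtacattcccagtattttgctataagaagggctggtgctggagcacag
Il11: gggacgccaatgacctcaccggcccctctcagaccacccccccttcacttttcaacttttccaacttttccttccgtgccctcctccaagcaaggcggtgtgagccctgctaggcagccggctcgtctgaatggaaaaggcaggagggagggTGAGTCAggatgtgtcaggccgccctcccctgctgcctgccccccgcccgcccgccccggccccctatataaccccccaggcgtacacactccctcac

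The same 11 bases, a match on each strand shifted by 1 base, stood 71 to 61 bases before the start of Cxcl1 and 73 to 63 bases before that of Cxcl3, and Cxcl2 carried them 97 to 87 bases before its start. The match of Ccl20 was on the minus strand. Of the 46 members with an entry, 10 held a match to the NF-κB consensus (21.7%), against 8.23% of the 27025 genes with an entry, and 8 held an AP-1 match (17.4%), against 7.82%. TATAAA on the strand of the gene was found in 18 members (39.1%), against 8.94% of all genes, and GTCTAGAC, the palindromic SMAD-binding element, in none, against 0.2%. By single promoters, 7.25% of 32851 held the NF-κB consensus and 6.75% the AP-1 motif. The NF-κB matches lay in Ccl1, Ccl9, Ccl20, Cxcl1, Cxcl2, Cxcl3, Cxcl10, Il6, Il16 and Il19, of which Ccl9, Ccl20, Cxcl1 and Cxcl10 were expressed above the limit used below. The window before a second, upstream start of Il11 held none of these motifs. Members of a cluster share ancestry, so they are not independent, and a match describes letters, not a bound site.

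Most chemokine and interleukin genes were silent or nearly so in these cells. Of the 67 symbols, 14 were at 0 in every library of both tables (Ccl22, Ccl24, Ccl26, Ccl28, Il2, Il3, Il9, Il10, Il13, Il17a, Il17b, Il22, Il25 and Il31), and 44, these included, stayed under 1 FPKM in every library of both tables. The FPKM scales the fragments of a gene to the length of its transcript and to the size of the library. A gene was tested when at least 2 libraries of its table reached 1 FPKM. In parental cells 18 of 66 members passed (27.3%), against 48.5% of all genes listed, and among infected cells 19 of 66 passed (28.8%), against 47.2%. In parental or infected cells 20 members passed, which were 7 of 19 CC chemokines (Ccl2, Ccl7, Ccl8, Ccl9, Ccl17, Ccl20 and Ccl25), 6 of 13 CXC chemokines (Cxcl1, Cxcl5, Cxcl10, Cxcl12, Cxcl16 and Cxcl17), Cx3cl1, and 6 of 34 interleukins (Il11, Il15, Il18, Il24, Il33 and Il34). Of these, 17 passed in both tables, Cxcl10 passed only in parental cells, and Ccl17 and Il24 passed only in infected cells. Just outside, Ccl5, an attractant of T cells and monocytes, reached 1.16 FPKM in 1 parental library at 24 h and 0.573 FPKM in the other, and Il6 and Il7 reached 0.904 and 0.832 FPKM. Il8 and Cxcl15, each listed in 1 table, stayed under 1 FPKM there.

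**Figure D1:**
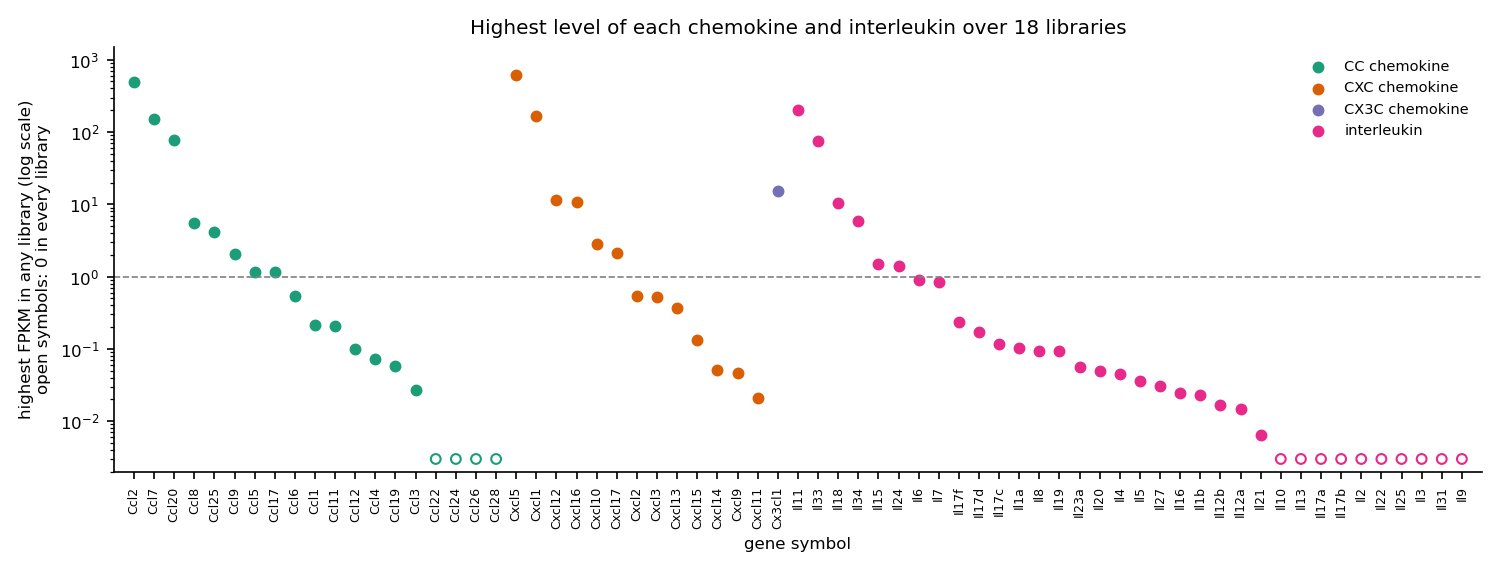
Highest FPKM of each of the 67 symbols in any of 18 libraries, on a log scale, by family. Open symbols are genes at 0 in every library, 14 in all, and the dashed line is 1 FPKM, under which lie 44 genes listed in both tables as well as Il8 and Cxcl15.

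A few genes carried nearly all of the signal. The FPKM of all members summed to 1433 and 1405 in the untreated parental libraries, and Ccl2 alone, which attracts monocytes through Ccr2, made up 33.2% and 31.4% of that sum. The sum of the CXC chemokines was 790 and 791 FPKM in untreated parental cells, 169 and 286 FPKM at 8 h, then 326 and 355 FPKM at 24 h. This sum in control cells went from 227 and 196 FPKM to 19.5 and 19.4 FPKM at 8 h, then 33.7 and 29.1 FPKM at 24 h. The sum of the interleukins moved the other way by 24 h, from 49.1 and 48.8 FPKM to 152 and 137 FPKM in parental cells and from 68.7 and 83.3 FPKM to 205 and 217 FPKM in control cells. The groups did not overlap in any of these comparisons of untreated with 24 h TGF-β-treated cells. In RNA from whole cultures, fewer cells that express a gene and less RNA per cell cannot be told apart, and the parental and shRNA tables were normalized separately, so levels in one were not tested against levels in the other.

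Some replicates differed in composition and depth. Log2 values of replicates correlated at r = 0.983 to 0.994 across genes, the 10 highest genes took 11.4% to 40.4% of a library's FPKM, and relative depth, estimated from the smallest steps of the values because the tables hold no counts, ranged from 78.5% to 117% of the first library of a table. The share of the 10 highest genes was 31.3% and 17.9% in the KD libraries at 8 h, 27.8% and 38.4% in those at 24 h and 40.4% and 29.9% in the control libraries at 24 h, and the relative depth of the KD libraries at 8 h was 100% and 78.5%. The part of these gaps in the results was not tested beyond leaving out each library in turn. Lmnb1, the target of the shRNA, was at 17.9 to 36.5 FPKM in control and 4.37 to 9.27 FPKM in KD libraries, and every KD library was below the control libraries of its time. Of the epithelial markers, Krt8, Krt18 and Cdh1 were at 26.8 FPKM or more in every library, whereas Epcam did not exceed 3.15 FPKM, Esrp1 0.324 FPKM and Cldn3 0.0562 FPKM. Krt19 and Cldn4 varied widely, from 18 to 1192 FPKM and from 0 to 9.78 FPKM. Summed, the 8 epithelial markers were at 4844 to 6294 FPKM in untreated libraries and 4326 to 7009 FPKM in 24 h libraries. Vim was at 1164 FPKM or more in every library, untreated ones included. The 12 mesenchymal markers summed to 1270 to 1481 FPKM in untreated libraries, mostly through Vim, and to 1799 to 2452 FPKM in 24 h libraries. Of the 12, 11 reached 1 FPKM in untreated parental libraries and 6 or 7 in untreated infected ones. At 24 h they were 12 and 10. In infected cells Col1a2 did not exceed 0.052 FPKM and Twist1 0.987 FPKM, whereas Cdh2 was at 29.4 FPKM or more in every library. Of 12 leukocyte markers only Cd68 and, in 1 library, Csf1r reached 1 FPKM, and the defining markers Ptprc and Cd3e stayed at or under 0.04 FPKM. Summed, the leukocyte markers were at 1.68 to 2.04 FPKM in untreated libraries and 2.5 to 3.91 FPKM in 24 h libraries, and the part of these markers in the results was not tested.

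TGF-β lowered the neutrophil-attracting chemokines Cxcl1 and Cxcl5 as well as Ccl20, Cx3cl1 and Il33, and raised Il11, Ccl7, Cxcl16 and Il34, with the same direction in parental, control and KD cells. After 8 h, 7 members were lower in all of them (Ccl20, Cx3cl1, Cxcl1, Cxcl5, Cxcl17, Il18 and Il33) and 4 were higher (Ccl7, Cxcl16, Il11 and Il34). After 24 h, 5 were lower in all (Ccl20, Cx3cl1, Cxcl1, Cxcl5 and Il33) and 6 were higher (Ccl7, Ccl8, Cxcl12, Cxcl16, Il11 and Il34), and none was called in opposite directions at either time. The share of all genes called in the same direction in all of these cells was not counted, so these joint counts only describe. Differences were tested with limma on log2(FPKM + 1) with Benjamini-Hochberg adjustment over all genes tested, and a gene was called when its adjusted p was under 0.05. Errors given with ± after a difference are standard errors on this scale, with 2 libraries per group. Differences on this scale understate the change of genes near or under 1 FPKM. The 8 h and 24 h comparisons of a cell line share their untreated libraries and are not independent.

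The counts were set against the response of the whole transcriptome, which was wide. In parental cells at 8 h, 5 of 18 members were higher, where 22.4% of all genes tested were called higher, and 7 were lower, where 32.1% were. At 24 h, 7 were higher (33.4% of all genes) and 7 were lower (37.1%). In control cells at 8 h, 7 of 19 members were higher (19.4% of all genes) and 10 were lower (44.9%), and at 24 h 8 were higher (25.5%) and 6 were lower (45.1%). In KD cells at 8 h, 5 of 19 were higher (23% of all genes) and 9 were lower (44.8%), and at 24 h 8 were higher (28.6%) and 6 were lower (43.3%). Most of the genes tested were thus called as well, so the counts alone set the members little apart, while their differences were larger in size. The median absolute difference was 0.78 over members against 0.18 over all genes in parental cells at 8 h, 0.89 against 0.29 at 24 h, 1.07 against 0.28 in control cells at 8 h and 1.25 against 0.35 at 24 h. A member that passed the limit of 1 FPKM only because it was high in 1 group had to differ, so these counts and medians describe and do not support. This concerns Ccl8, Cxcl17 and Il15 in the parental table and Ccl8, Ccl17, Cxcl17, Il11 and Il24 in the shRNA table, which reached 1 FPKM either in untreated libraries alone (Cxcl17 and Il15) or in treated libraries alone. Each TGF-β call of these genes in these tables was also made when no filter was used. The median signed difference over all genes was -0.14 at 8 h and -0.13 at 24 h in control cells, -0.13 and -0.10 in KD cells, and -0.05 and -0.02 in parental cells, and the values below are not corrected for it.

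**Figure D2:**
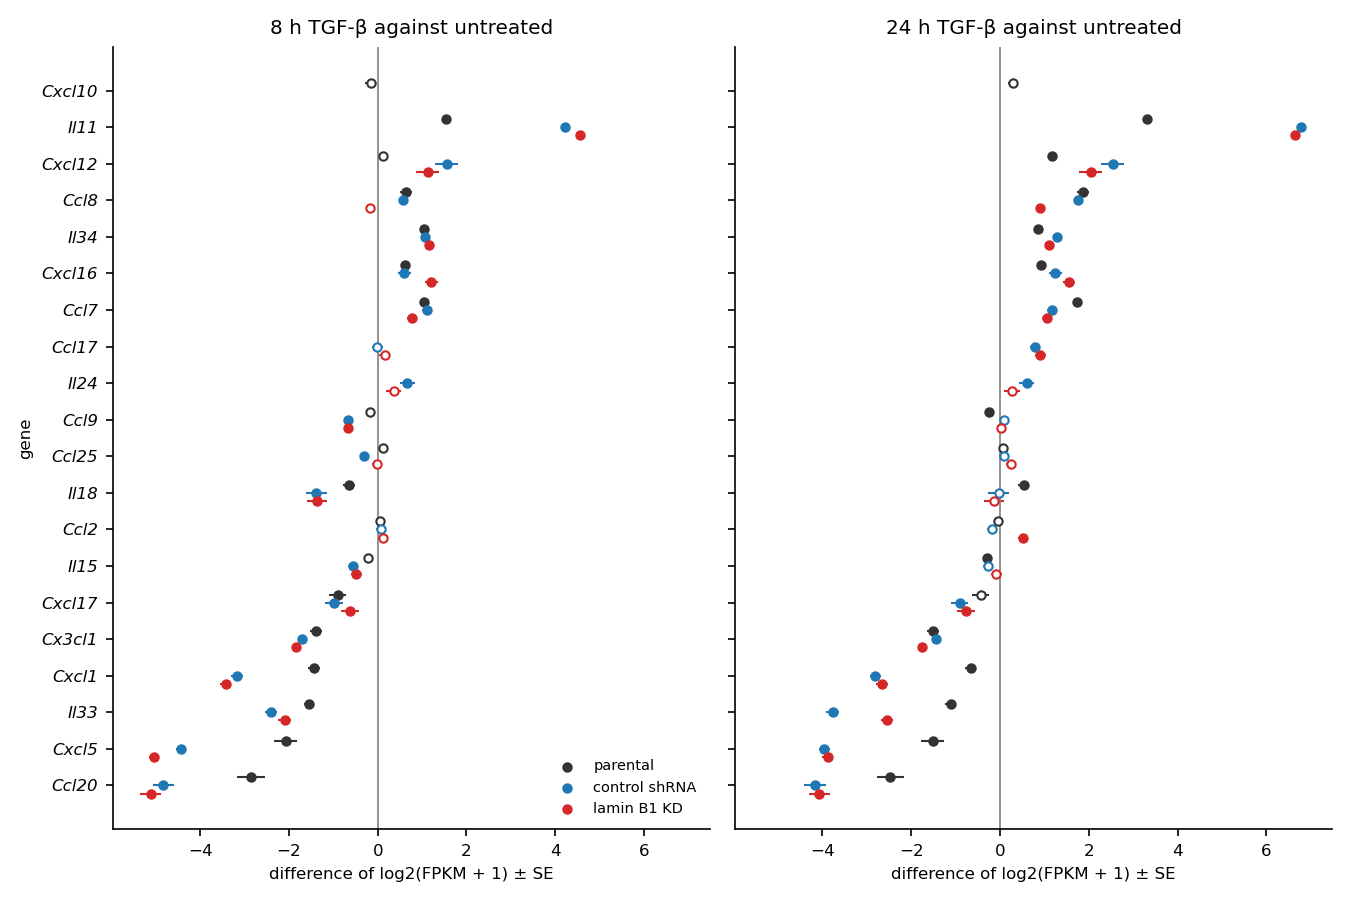
Difference of log2(FPKM + 1) between TGF-β-treated and untreated cells for the members tested, at 8 h (left) and 24 h (right), with its standard error, in parental, control and KD cells (2 libraries per group). Filled points passed an adjusted p of 0.05 and open points did not; Il11 lies far to the right (6.78 in control cells at 24 h), and Ccl20 and Cxcl5 far to the left.

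Cxcl5 and Cxcl1, which attract neutrophils through Cxcr2, were the highest CXC chemokines of untreated cells. Cxcl5 was at 611 and 617 FPKM in untreated parental libraries, 104 and 202 FPKM at 8 h, then 203 and 225 FPKM at 24 h. Control libraries of Cxcl5 were at 168 and 147 FPKM, 6.05 and 6.59 FPKM at 8 h, then 9.88 and 8.46 FPKM at 24 h, and KD libraries at 112 and 113 FPKM, 2.62 and 2.26 FPKM and 7.68 and 5.86 FPKM. No treated library reached an untreated one of the same cells. Mean Cxcl5 fell 4.02-fold in parental and 24.9-fold in control cells at 8 h (limma difference -2.07 ± 0.26 and -4.43 ± 0.12, adjusted p = 0.000675 and 2.04e-08). At 24 h it was 2.87-fold and 17.1-fold below untreated cells (-1.52 ± 0.26 and -3.96 ± 0.12, adjusted p = 0.00156 and 1.54e-08).

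Cxcl1 followed the same course, at 167 and 160 FPKM in untreated parental libraries, 50.6 and 70.4 FPKM at 8 h, then 99.3 and 107 FPKM at 24 h. In control cells it was at 52.6 and 45.6 FPKM, 4.56 and 4.54 FPKM at 8 h, then 6.91 and 5.4 FPKM at 24 h. In KD cells it was at 42.3 and 42.9 FPKM, 2.91 and 3.17 FPKM, and 6.72 and 5.16 FPKM. Treated and untreated libraries did not overlap, and in all cells the 8 h level was below the 24 h level. The fall at 8 h was 2.7-fold in parental, 10.8-fold in control and 14-fold in KD cells (adjusted p = 0.000197, 1.46e-07 and 7.68e-08 by limma). Their close relatives Cxcl2 and Cxcl3 reached no more than 0.543 and 0.515 FPKM, both in untreated parental cells. How reads that match more than 1 of these related genes were shared out is not given in the sources used here.

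Ccl20, the ligand of Ccr6 on dendritic cells, B cells and Th17 cells, had the deepest fall of the CC chemokines. It was at 53.2 and 58.6 FPKM in untreated parental libraries, 4.36 and 10.5 FPKM at 8 h, then 8.53 and 10.1 FPKM at 24 h. Control libraries of Ccl20 were at 51.4 and 28.6 FPKM, 0.294 and 0.479 FPKM at 8 h, then 1.33 and 1.04 FPKM at 24 h, and KD libraries at 75 and 76.7 FPKM, 1.05 and 1.39 FPKM, and 2.99 and 4.24 FPKM. The groups did not overlap, although the untreated control libraries stood well apart from each other. The limma difference at 8 h was -2.86 ± 0.31 in parental, -4.83 ± 0.24 in control and -5.12 ± 0.24 in KD cells (adjusted p = 0.000343, 5.14e-07 and 2.94e-07).

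Cx3cl1, or fractalkine, is made as a membrane protein on epithelia and endothelia and acts on Cx3cr1. It was at 14.5 and 15.4 FPKM in untreated parental libraries, 4.23 and 6.06 FPKM at 8 h, then 4.57 and 4.6 FPKM at 24 h. In control cells it was at 7.89 and 7.11 FPKM, 1.66 and 1.58 FPKM, and 2.07 and 2.19 FPKM, and in KD cells at 10.5 and 10.5 FPKM, 2.19 and 2.19 FPKM, and 2.43 and 2.38 FPKM. Every treated library was below every untreated library of its cells, by 3.26-fold in the mean of parental and 3.52-fold in the mean of control cells at 24 h (limma difference -1.51 ± 0.13 and -1.44 ± 0.06, adjusted p = 4.36e-05 and 6.92e-08).

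Il33, an IL-1 family protein that is stored in the nucleus of epithelial cells and released on damage, fell on different courses. It was at 27.8 and 26.7 FPKM in untreated parental libraries, 7.48 and 9.98 FPKM at 8 h, then 11.3 and 13 FPKM at 24 h. Control libraries of Il33 were at 59.1 and 76.1 FPKM, 11.9 and 11.9 FPKM at 8 h, then 3.34 and 4.75 FPKM at 24 h, so that the 24 h level was below the 8 h level there and above it in parental cells. The limma difference at 24 h was -1.11 ± 0.12 in parental and -3.77 ± 0.14 in control cells (adjusted p = 0.000153 and 4.71e-08). Il1rl1, the receptor of IL-33, which is named here after its values were seen, rose in the same libraries, from a mean of 0.385 FPKM to 2.1 FPKM in parental and from 0.405 FPKM to 2.28 FPKM in control cells at 24 h (adjusted p = 1.35e-05 and 1.77e-06). Il1rl1 was under 1 FPKM in untreated libraries and was tested only through treated ones. A rise was thus built into its being tested, and the values only describe.

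Il18, another IL-1 family cytokine, which is made as a precursor and cut by caspase-1, fell at 8 h and was back at 24 h. It was at 5.84 and 6.94 FPKM in untreated parental libraries, 3.2 and 4.24 FPKM at 8 h, then 8.88 and 10.4 FPKM at 24 h. In control cells it was at 5.49 and 2.75 FPKM, 0.705 and 1.1 FPKM, and 3.57 and 4.13 FPKM, and in KD cells at 5.25 and 5.15 FPKM, 1.37 and 1.44 FPKM, and 4.03 and 5.37 FPKM. The 8 h libraries were below the untreated ones in all cells (adjusted p = 0.00472 in parental, 0.000698 in control and 0.00065 in KD cells by limma). At 24 h the parental libraries were above the untreated ones (0.53 ± 0.13, adjusted p = 0.00807), whereas the difference was -0.03 (95% interval -0.55 to 0.49) in control and -0.13 (-0.65 to 0.39) in KD cells. The parental rise lost its call without the first untreated library (adjusted p = 0.0614) and without the second 24 h library (0.0516).

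Il11 had the largest rise. It was at 10.6 and 10.7 FPKM in untreated parental libraries, 34.5 and 30.8 FPKM at 8 h, then 125 and 106 FPKM at 24 h. In control cells it was at 0.705 and 0.852 FPKM, 32.2 and 32 FPKM at 8 h, then 189 and 199 FPKM at 24 h. In KD cells it was at 0.169 and 0.427 FPKM, 29 and 29.3 FPKM, and 137 and 121 FPKM. No groups of the same cells overlapped, and the untreated level was over 1 FPKM only in parental cells. The limma difference at 24 h was 3.32 ± 0.08 in parental, 6.78 ± 0.09 in control and 6.65 ± 0.09 in KD cells (adjusted p = 4.69e-07, 2.68e-10 and 2.87e-10). Its receptor chain Il11ra1, named like Il6st after the values were seen, was at 3.15 to 5.82 FPKM over all libraries. The shared chain Il6st (gp130) was at 15.4 to 25.7 FPKM. Il11ra1 was lower at 24 h in parental (-0.44 ± 0.08), control (-0.43 ± 0.08) and KD cells (-0.29 ± 0.08, adjusted p = 0.00241, 0.00113 and 0.00989 by limma). It was higher in KD than in control cells at 8 h (0.40 ± 0.08, adjusted p = 0.00572) and 24 h (0.36 ± 0.08, 0.0133). Il6st was not called at 24 h against untreated cells.

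**Figure D3:**
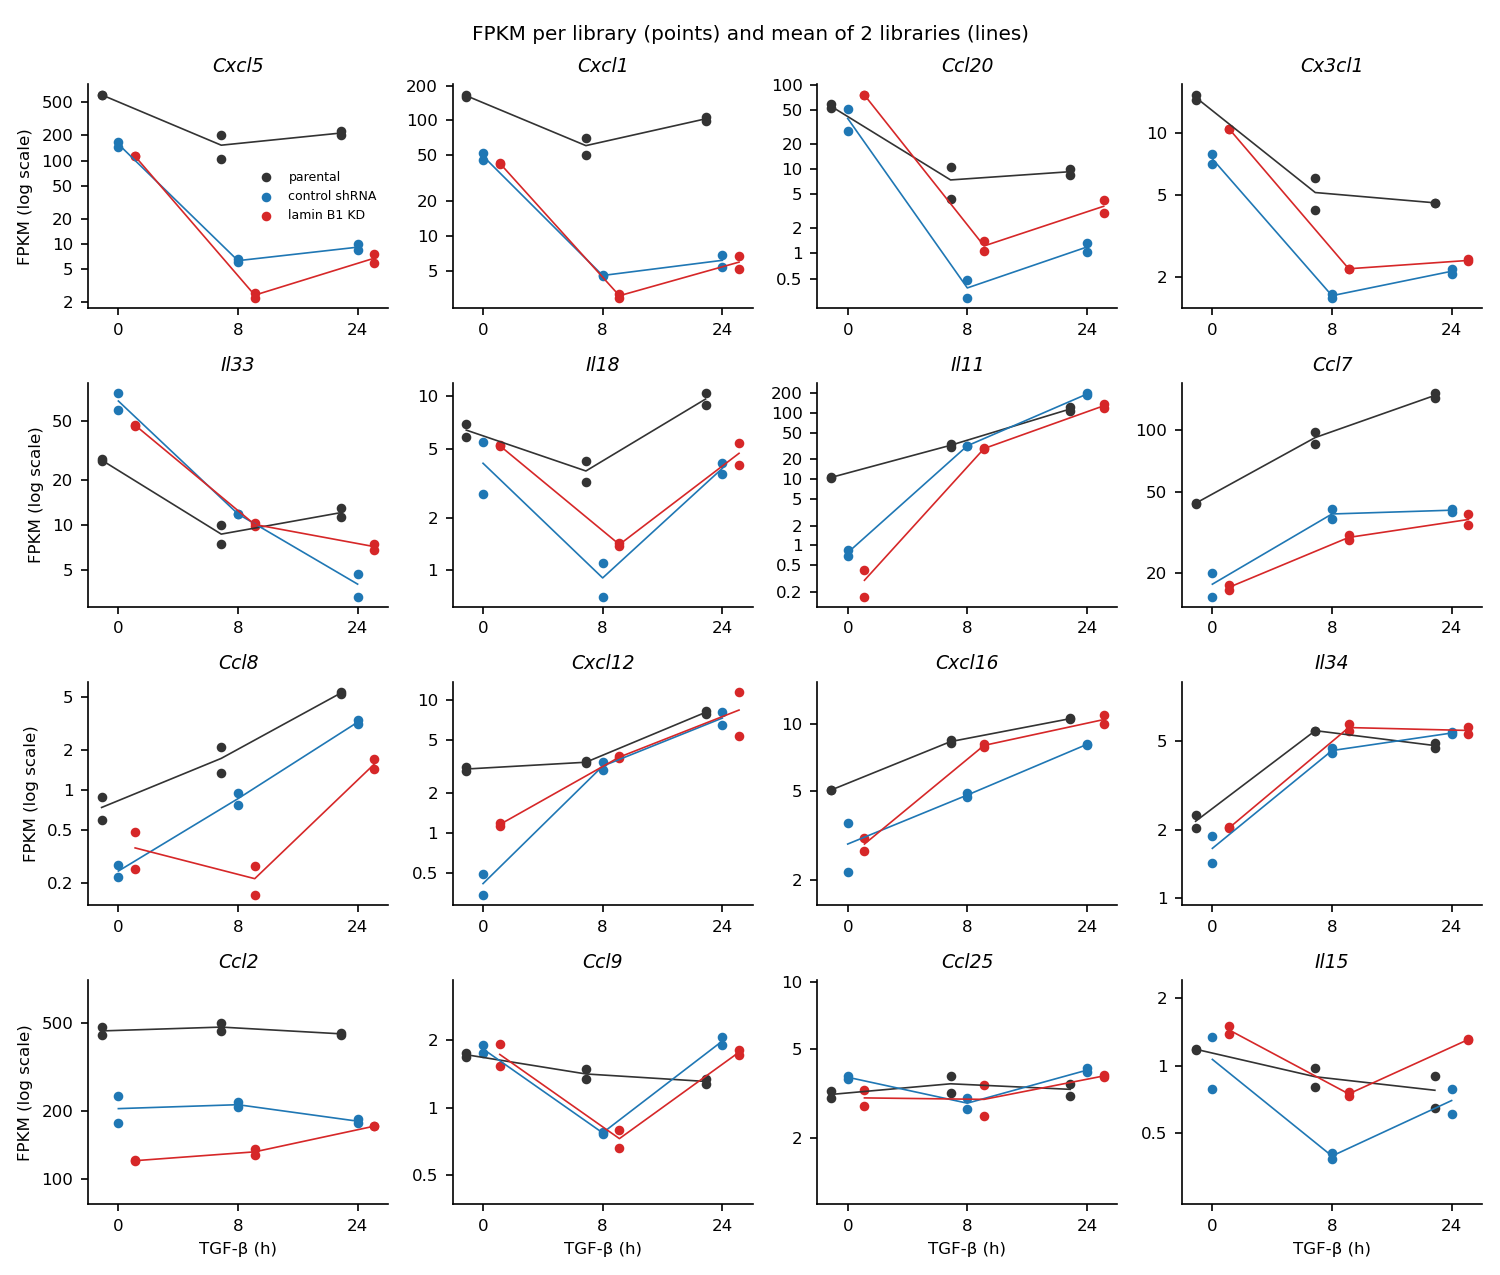
FPKM of 16 members in each library (points) and the mean of 2 libraries (lines), on log axes that differ between panels, in untreated cells and after 8 and 24 h of TGF-β. Cxcl5, Cxcl1, Ccl20, Cx3cl1 and Il33 lie lower after TGF-β, Il18 has its lowest points at 8 h, and Il11 goes from 0.778 FPKM to 194 FPKM in control cells.

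Ccl2, Ccl7 and Ccl8, which lie in the same group of chemokine genes on chromosome 11, differed in their response. Ccl2 was at 476 and 441 FPKM in untreated parental libraries, 459 and 495 FPKM at 8 h, then 450 and 440 FPKM at 24 h, and these groups overlapped. The limma difference at 24 h was -0.04 (95% interval -0.17 to 0.09) in parental and -0.18 (-0.42 to 0.06) in control cells, where Ccl2 was at 235 and 177 FPKM untreated, 220 and 209 FPKM at 8 h, then 185 and 177 FPKM at 24 h. In KD cells, by contrast, Ccl2 rose from 120 and 121 FPKM to 172 and 172 FPKM at 24 h (0.51 ± 0.11, adjusted p = 0.00208). Its neighbour Ccl7 was at 44.1 and 43.7 FPKM in untreated parental libraries, 98.6 and 85.9 FPKM at 8 h, then 145 and 152 FPKM at 24 h. In control cells Ccl7 was at 19.9 and 15.3 FPKM, 41.2 and 36.6 FPKM, and 41.2 and 40 FPKM, so that the groups stood apart from untreated cells at both times, as they did in KD cells (16.5 and 17.5 FPKM, 29 and 30.7 FPKM, and 38.7 and 34.4 FPKM). Ccl7 thus rose 3.39-fold in the mean of parental and 2.31-fold in the mean of control cells by 24 h (adjusted p = 1.46e-06 and 1.52e-05). Ccl8, in mouse a ligand of Ccr8, was at 0.596 and 0.887 FPKM in untreated parental libraries, 2.11 and 1.35 FPKM at 8 h, then 5.25 and 5.44 FPKM at 24 h. In control cells Ccl8 went from 0.222 and 0.273 FPKM to 0.954 and 0.773 FPKM and 3.34 and 3.12 FPKM, without overlap (adjusted p = 0.000886 at 8 h and 5.4e-07 at 24 h). In KD cells Ccl8 was at 0.482 and 0.256 FPKM, 0.163 and 0.271 FPKM, and 1.71 and 1.43 FPKM, and it was called at 24 h (0.91 ± 0.10, adjusted p = 3.64e-05) but not at 8 h (-0.17, 95% interval -0.39 to 0.06). The parental 8 h call of Ccl8 (adjusted p = 0.00781) was lost without the first untreated library (0.0585).

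Cxcl12, the ligand of Cxcr4 and Ackr3, and Cxcl16, a transmembrane chemokine for Cxcr6, rose as well. Cxcl12 was at 3.12 and 2.89 FPKM in untreated parental libraries, 3.44 and 3.32 FPKM at 8 h, then 7.84 and 8.19 FPKM at 24 h. In control cells Cxcl12 was at 0.338 and 0.489 FPKM, 3.37 and 2.95 FPKM, and 8.07 and 6.44 FPKM, and in KD cells at 1.18 and 1.12 FPKM, 3.61 and 3.78 FPKM, and 5.28 and 11.4 FPKM. The parental difference was 0.13 (95% interval -0.01 to 0.27) at 8 h and 1.17 (1.03 to 1.31) at 24 h, while the control difference was 1.56 ± 0.26 already at 8 h (adjusted p = 0.000689). Cxcl16 was at 5.05 and 5.06 FPKM in untreated parental libraries, 8.46 and 8.2 FPKM at 8 h, then 10.6 and 10.5 FPKM at 24 h. In control cells Cxcl16 was at 3.62 and 2.18 FPKM, 4.89 and 4.72 FPKM, and 8.08 and 8.11 FPKM, and in KD cells at 3.09 and 2.71 FPKM, 8.15 and 7.87 FPKM, and 10.9 and 10 FPKM. Treated and untreated libraries of Cxcl16 did not overlap (in control cells adjusted p = 0.00564 at 8 h and 5.37e-05 at 24 h).

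Il34, a ligand of Csf1r that keeps tissue macrophages alive, had risen by 8 h and was still raised at 24 h. It was at 2.35 and 2.04 FPKM in untreated parental libraries, 5.58 and 5.58 FPKM at 8 h, then 4.91 and 4.66 FPKM at 24 h. The control libraries of Il34 were at 1.43 and 1.89 FPKM, 4.42 and 4.67 FPKM, and 5.39 and 5.5 FPKM, and KD libraries at 2.06 and 2.04 FPKM, 5.95 and 5.57 FPKM, and 5.4 and 5.78 FPKM. All treated libraries were above the untreated ones of their cells, by 0.86 ± 0.07 in parental and 1.28 ± 0.08 in control cells at 24 h (adjusted p = 3.14e-05 and 1.12e-06 by limma).

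The remaining members that passed stayed under 5 FPKM in every library. Ccl9, a ligand of Ccr1, was at 1.91 and 1.75 FPKM in untreated control libraries, 0.761 and 0.782 FPKM at 8 h, then 2.07 and 1.9 FPKM at 24 h, and in KD cells at 1.53 and 1.93 FPKM, 0.791 and 0.663 FPKM, and 1.72 and 1.82 FPKM. Ccl9 was thus lower at 8 h in both (adjusted p = 0.000102 and 9.35e-05). In parental cells Ccl9 was at 1.69 and 1.76 FPKM, 1.34 and 1.49 FPKM, and 1.28 and 1.34 FPKM, and its call at 24 h (adjusted p = 0.0171) was lost when any 1 of the 4 libraries was left out (0.0518 to 0.107). Il15, which acts on NK cells and CD8 T cells, was at 1.18 and 1.19 FPKM in untreated parental libraries, 0.807 and 0.978 FPKM at 8 h, then 0.904 and 0.649 FPKM at 24 h, and its 24 h call (adjusted p = 0.0225) was lost without the second 24 h library (0.167). In control cells Il15 was at 1.35 and 0.784 FPKM, 0.406 and 0.383 FPKM, and 0.787 and 0.61 FPKM (adjusted p = 0.00267 at 8 h and 0.061 at 24 h), and in KD cells at 1.38 and 1.51 FPKM, 0.762 and 0.734 FPKM, and 1.3 and 1.32 FPKM (0.00512 at 8 h). Il15 thus had its lowest libraries at 8 h in infected cells. Cxcl17, a chemokine of mucosal epithelia, was at 1.08 and 2.1 FPKM in untreated parental libraries, 0.521 and 0.211 FPKM at 8 h, then 0.988 and 0.785 FPKM at 24 h. Cxcl17 in control cells was at 1.98 and 0.933 FPKM, 0.184 and 0.228 FPKM, and 0.341 and 0.223 FPKM (adjusted p = 0.00221 and 0.00306), and in KD cells at 1.7 and 1.08 FPKM, 0.445 and 0.635 FPKM, and 0.522 and 0.267 FPKM. It was tested only through its untreated libraries, the only ones at 1 FPKM or more. In KD cells the Cxcl17 calls (adjusted p = 0.0211 at 8 h and 0.00713 at 24 h) were lost without the first untreated KD library (0.146 and 0.0602) and, at 8 h, without the first 8 h library (0.107).

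Ccl17, a ligand of Ccr4, was at 0.0549 and 0.108 FPKM in untreated control libraries, 0 and 0.153 FPKM at 8 h, then 0.673 and 1.09 FPKM at 24 h, and in KD cells at 0.119 and 0 FPKM, 0.161 and 0.202 FPKM, and 0.847 and 1.14 FPKM. The 24 h libraries of Ccl17 stood above the others in both (adjusted p = 0.000408 and 0.000163), and it was tested only because 2 of them reached 1 FPKM. Il24, an IL-10 family cytokine, was at 0.253 and 0.56 FPKM in untreated control libraries, 1.07 and 1.39 FPKM at 8 h, then 1.08 and 1.17 FPKM at 24 h. In KD cells Il24 was at 0.243 and 0.261 FPKM, 0.503 and 0.726 FPKM, and 0.8 and 0.268 FPKM and was not called. Il24 was tested only through the 4 treated control libraries, the only ones at 1 FPKM or more. The Il24 calls in control cells (adjusted p = 0.007 and 0.0105) were lost without the first untreated library (0.0526 and 0.0754), without the second 8 h library (0.0521) and without the second 24 h library (0.051). Ccl25, the ligand of Ccr9, was at 3.04 and 3.25 FPKM in untreated parental libraries, 3.82 and 3.2 FPKM at 8 h, then 3.52 and 3.11 FPKM at 24 h. Control libraries of Ccl25 were at 3.81 and 3.7 FPKM, 2.72 and 3.03 FPKM, and 4.12 and 3.96 FPKM, and KD libraries at 3.28 and 2.79 FPKM, 3.47 and 2.51 FPKM, and 3.77 and 3.84 FPKM. Treated and untreated Ccl25 libraries overlapped at both times in parental cells and at 8 h in KD cells and were apart elsewhere. Its only call, lower in control cells at 8 h (-0.30 ± 0.11, adjusted p = 0.0393), was lost when any 1 of the 4 libraries was left out (0.063 to 0.179), without the filter (0.0773) and after quantile normalization (-0.10, adjusted p = 0.427). Cxcl10, a ligand of Cxcr3 that interferon induces, was at 1.61 to 2.85 FPKM in parental cells and was not called (0.29 at 24 h, 95% interval 0.01 to 0.58).

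Between KD and control cells 6, 8 and 6 members were called at 0, 8 and 24 h, and the median absolute difference over members was 0.24, 0.34 and 0.15, against 0.11, 0.15 and 0.14 over all genes. The KD and control libraries compared here also enter the TGF-β comparisons above. In untreated cells 2 of 19 members were higher in KD than in control cells, where 10.6% of all genes tested were called higher, and 4 were lower, where 9.09% were. At 8 h 3 were higher (19.3% of all genes) and 5 were lower (16.5%), and at 24 h 3 were higher (16.8%) and 3 were lower (11.5%). Of these 20 calls, 9 held when any 1 of the 4 libraries compared was left out, and they concerned Ccl2, Cx3cl1, Cxcl5, Ccl8, Il11 and Il33.

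Ccl2 was lower in KD cells before and early after TGF-β. It was at 120 and 121 FPKM in untreated KD libraries against 235 and 177 FPKM in control libraries, at 136 and 128 FPKM against 220 and 209 FPKM at 8 h, and at 172 and 172 FPKM against 185 and 177 FPKM at 24 h. KD and control libraries of Ccl2 stood apart at all times, with a gap that was narrow at 24 h. The difference was -0.76 ± 0.11 in untreated cells (adjusted p = 0.00235), -0.70 ± 0.11 at 8 h (0.00162) and -0.07 (95% interval -0.31 to 0.17) at 24 h. Cxcl5 was also lower in KD cells, most at 8 h (-1.09 ± 0.12, adjusted p = 0.000338). Its calls in untreated cells (-0.48 ± 0.12, adjusted p = 0.0255) and at 24 h (-0.39 ± 0.12, 0.0384) were less firm. The first was lost without the first control library or either KD library (0.101 to 0.128), and the second without either control library or the second KD library (0.0606 to 0.217).

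Cx3cl1 was higher in KD than in control cells when untreated (0.44 ± 0.06, adjusted p = 0.00156) and at 8 h (0.28 ± 0.06, 0.00555), with KD libraries above control libraries at each time. At 24 h the Cx3cl1 difference was 0.12 (95% interval -0.01 to 0.25). Ccl20 had a mean of 75.8 FPKM in untreated KD cells and was 1.9-fold above control cells (0.96 ± 0.24, adjusted p = 0.0248), and 3.05-fold above them at 24 h (1.07 ± 0.24, 0.0126). The Ccl20 call in untreated cells was lost without the second control library (adjusted p = 0.0755) and without either KD library (up to 0.118), and the 24 h call without either control library or the second KD library (0.0513 to 0.0779).

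**Figure D4:**
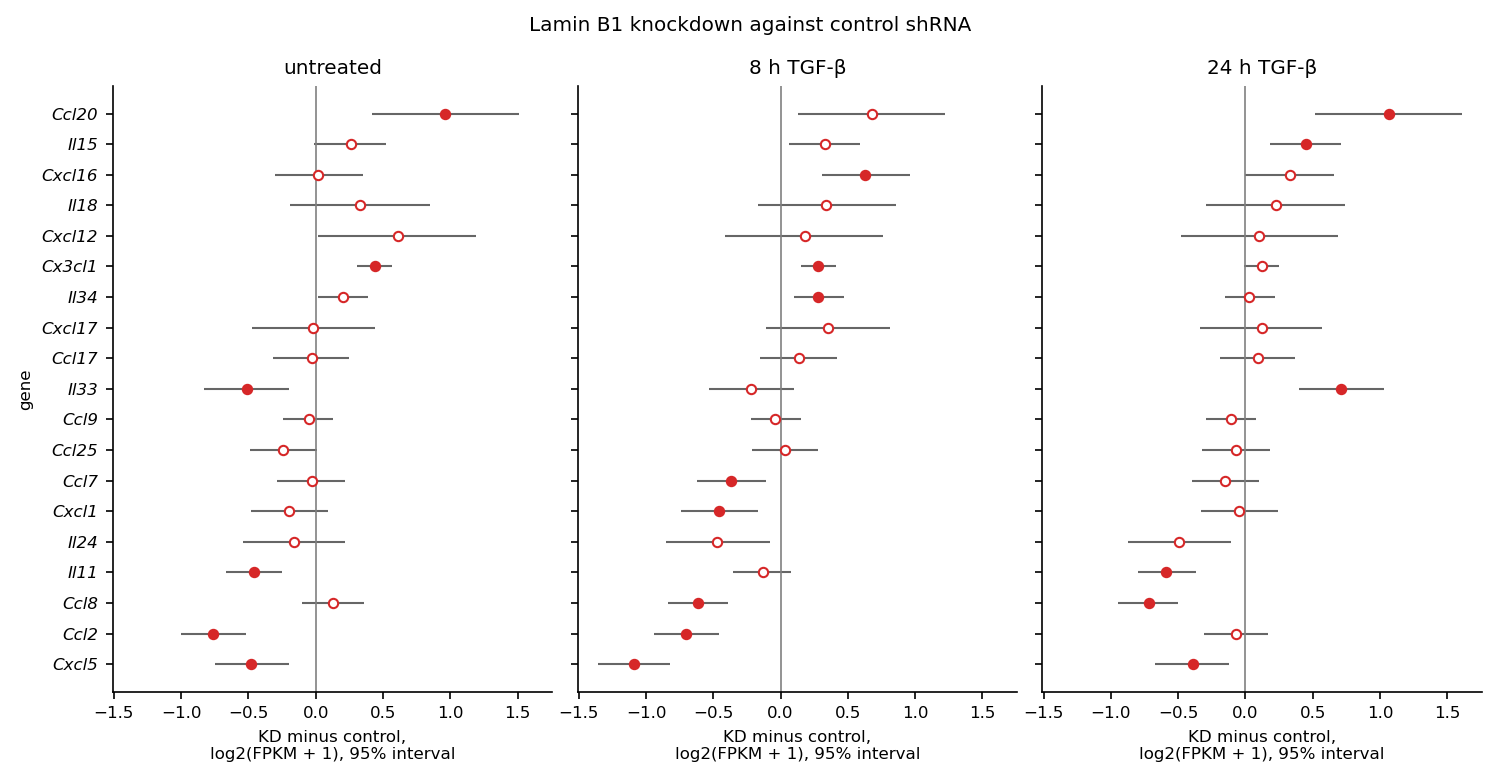
Difference of log2(FPKM + 1) between KD and control cells with its 95% interval in untreated cells and after 8 and 24 h of TGF-β, for the 19 members tested in the shRNA table (2 libraries per group). Filled points passed an adjusted p of 0.05; Ccl2 lies at -0.76, -0.70 and -0.07, and Il33 goes from -0.51 to 0.71.

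Il33 differed between KD and control cells in opposite directions before and after TGF-β. Untreated KD libraries of Il33 were at 47 and 46.2 FPKM against 59.1 and 76.1 FPKM in control cells, 8 h libraries at 9.94 and 10.3 FPKM against 11.9 and 11.9 FPKM, and 24 h libraries at 6.85 and 7.55 FPKM against 3.34 and 4.75 FPKM. Control libraries were thus the higher ones until 8 h and the lower ones at 24 h. The difference was -0.22 (95% interval -0.53 to 0.10) at 8 h. The untreated difference (-0.51 ± 0.14, adjusted p = 0.033) was lost without the second control library and without either KD library (0.135 to 0.153), while the 24 h difference (0.71 ± 0.14, 0.00679) held without any 1 of them. It was not called when only the compared groups were fitted (adjusted p = 0.0694).

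Il11 was lower in KD than in control cells at 24 h, with KD libraries at 137 and 121 FPKM against 189 and 199 FPKM (-0.59 ± 0.09, adjusted p = 0.00295). It was not called with a constant of 0.1 in place of 1 (adjusted p = 0.104). At 8 h the Il11 difference was -0.13 (95% interval -0.35 to 0.08), and the call in untreated cells (-0.46 ± 0.09, adjusted p = 0.0114), where all 4 libraries were under 1 FPKM, was lost without the second control library (0.0558) and without the first KD library (0.0684). Ccl8 was at 0.163 and 0.271 FPKM in 8 h KD libraries against 0.954 and 0.773 FPKM in control libraries (-0.61 ± 0.10, adjusted p = 0.00215). At 24 h it was at 1.71 and 1.43 FPKM against 3.34 and 3.12 FPKM (-0.72 ± 0.10, 0.00153), without overlap at either time. Its 8 h libraries were all under 1 FPKM, and Ccl8 was tested only through its 24 h libraries, the only ones at 1 FPKM or more.

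The other calls of KD against control cells were less firm. Cxcl16 at 8 h was at 8.15 and 7.87 FPKM in KD against 4.89 and 4.72 FPKM in control libraries (0.63 ± 0.14, adjusted p = 0.00947), and the call was lost without the second control library (0.0556) and the first KD library (0.054). Ccl7 (-0.37), Cxcl1 (-0.46) and Il34 (0.28) at 8 h each lost the call when any 1 of the 4 libraries was left out, with adjusted p of 0.0542 to 0.179 for Ccl7, 0.062 to 0.108 for Cxcl1 and 0.0623 to 0.135 for Il34. Il15 at 24 h was at 1.3 and 1.32 FPKM in KD against 0.787 and 0.61 FPKM in control libraries (0.45 ± 0.12, adjusted p = 0.0218), and the call was lost without either control library or the second KD library (0.0591 to 0.13). When no filter was used, the differences of Ccl20, Cxcl5 and Il33 in untreated cells, of Ccl7 and Il34 at 8 h and of Cxcl5 at 24 h were not called (adjusted p = 0.0512 to 0.075).

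Whether the response to TGF-β itself differed between KD and control cells was tested as an interaction. At 8 h no member had a more positive response in KD cells (2.45% of all genes) and 1 had a more negative one (1.61%), which was Ccl8. At 24 h Ccl2 and Il33 had a more positive response (2.73% of all genes) and Ccl8 a more negative one (1.98%). With no adjustment, 4 members had p under 0.05 at each time, and the share of all genes under this limit was not counted. None of these 4 calls, by limma, held under every omission of 1 library, and at 24 h that of Ccl8 was not made with a constant of 0.1 (adjusted p = 0.0697) nor that of Ccl2 without the filter (0.0661). The omission of the first untreated KD library ended all of them, and over the omissions that ended a call the adjusted p reached 0.124 for Ccl8 at 8 h and 0.148, 0.0923 and 0.078 for Ccl2, Ccl8 and Il33 at 24 h.

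Members of the signalling chain around these ligands were counted from lists of pathway genes. Of 23 chemokine receptors listed for parental cells 2 passed the limit, Cxcr2 and Cxcr7 (named Ackr3 in the shRNA table), which are named here after their values were seen. Cxcr7, an atypical receptor that binds Cxcl12, rose from a mean of 19.5 FPKM to 38.1 FPKM at 24 h in parental cells (0.93 ± 0.06, adjusted p = 1.48e-05). Cxcr2, the receptor of Cxcl1 and Cxcl5, was at 2.25 to 3.84 FPKM in parental and 4.58 to 9.53 FPKM in infected libraries. Cxcr2 was lower at 24 h in parental (-0.47 ± 0.07, adjusted p = 0.000875) and KD cells (-0.74 ± 0.08, 2.35e-05), was not called at 24 h in control cells (-0.08 ± 0.08, 0.368) and was higher there at 8 h (0.38 ± 0.08, 0.00192). Ccr2, Ccr6, Cx3cr1, Cxcr4 and Cxcr6, receptors of Ccl2, Ccl20, Cx3cl1, Cxcl12 and Cxcl16, stayed under 1 FPKM in every library, and Ccr6 was at 0 in all. Of 18 interleukin receptor chains tested in parental cells at 24 h, 6 were higher (33.4% of all genes), 6 were lower (37.1%) and 6 were not called, and their median difference was -0.04 against -0.02 over all genes. Il22ra1, an epithelial receptor of IL-22, went from 11.3 FPKM to 2.02 FPKM (-2.03 ± 0.05, adjusted p = 5.66e-07), and Il17ra from 7.94 FPKM to 14.8 FPKM (0.83 ± 0.06, 1.63e-05).

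Of 14 genes of the NF-κB pathway tested in parental cells at 24 h, 8 were higher, 3 were lower and 3 were not called (median 0.16), where 33.4% of all genes were higher and 37.1% lower. Tnfaip3, which encodes the inhibitor A20, rose from 11.5 FPKM to 20.7 FPKM (0.80 ± 0.04, adjusted p = 5.73e-06), and Bcl3, which encodes an atypical IκB protein, fell from 27.5 FPKM to 15.4 FPKM (-0.80 ± 0.16, 0.00336). Of 14 JAK-STAT genes tested, 7 were higher, 3 were lower and 4 were not called (median 0.19). Cish, a feedback inhibitor induced by STAT5, rose from 1.99 FPKM to 12.6 FPKM (2.19 ± 0.11, adjusted p = 3.71e-06), while Socs3, a feedback inhibitor of gp130 signalling, fell from 17.5 FPKM to 9.71 FPKM (-0.79 ± 0.06, 3.36e-05). Socs3 was also lower in control cells at 24 h (-0.45 ± 0.09, adjusted p = 0.00139). In KD cells Socs3 was not called at 8 h (0.20 ± 0.09, 0.0645) or 24 h (0.09 ± 0.09, 0.395). The interaction was 0.43 ± 0.12 at 8 h (adjusted p = 0.0914) and 0.54 ± 0.12 at 24 h (0.0463). Socs3 was already lower in untreated KD than in untreated control cells (-0.43 ± 0.09, adjusted p = 0.0118). Between KD and control cells it was not called at 8 h (0.01 ± 0.09, 0.968) or 24 h (0.11 ± 0.09, 0.366). Of 6 other cytokines tested, 3 were higher, 1 was lower and 2 were not called. Lif, an IL-6 family cytokine like Il11, rose from 5.76 FPKM to 20.8 FPKM (1.69 ± 0.09, adjusted p = 5.01e-06), and Csf1, which shares the receptor Csf1r with Il34, from 32.2 FPKM to 57.6 FPKM (0.82 ± 0.05, 1.22e-05). In parental cells at 8 h the counts of higher and lower genes were 7 and 5 of 18 interleukin receptor chains, 8 and 2 of 14 NF-κB genes and 4 and 2 of 14 JAK-STAT genes, against 22.4% and 32.1% of all genes. In control cells at 24 h they were 8 and 6 of 18, 6 and 4 of 14, and 6 and 4 of 14, against 25.5% and 45.1% of all genes. Of the 2 genes tested among processing factors and inhibitors in parental cells at 24 h, 1 was lower and 1 was not called, and Sigirr, an inhibitory receptor of the IL-1 family, was the one that fell (-0.57 ± 0.06, adjusted p = 0.000172). Sigirr was not called at 24 h in control cells (0.03 ± 0.15, adjusted p = 0.878) or KD cells (0.27 ± 0.15, 0.136).

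Lamin B1 peaks were scarce at chemokine and interleukin genes. On the mm9 build 65 of the 67 symbols could be placed on 64 gene models, and Ccl25 and Ccl28 could not. This build differs from that of the promoters printed above, and no coordinate was converted. A gene was counted as lamin B1 + when a deposited peak lay between 2500 bp upstream and its 3′ end. This window grows with the length of a gene, and members and all genes were not matched for length. No member was lamin B1 + in untreated cells (0 of 64, Wilson interval 0% to 5.66%), where 19.7% of 21221 placed genes were. At 8 h 7 members were (10.9%, interval 5.4% to 20.9%), against 38.6% of all genes, and at 24 h 3 were (4.69%, 1.61% to 12.9%), against 29.2%. The share over all genes was higher among genes that passed the expression limit (33.2%, 55.9% and 43.7%) than among those that did not (5.49%, 20.2% and 14%). Among members that passed the limit 0, 3 and 2 of 19 were lamin B1 + at 0, 8 and 24 h, and among the others 0, 4 and 1 of 45. The intervals cover counting error only, and with 1 library per time a difference between times has no replicate check.

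The members with a lamin B1 peak included genes of both directions. Cxcl12, which rose, was lamin B1 + at 8 h and 24 h, with peaks over its start at chr6:117118253-117119268 (mm9, MACS score 102) and chr6:117118567-117119298 (score 60.9). Cx3cl1, which fell, had a peak over its start at 8 h only, at chr8:97295537-97296391 (score 69.1), and so did Cxcl1, at chr5:91320154-91320774 (score 68.3). Il11 had a peak at 24 h only, in an intron, at chr7:4728390-4729390 (score 77.5), centred 853 bp from its nearest annotated start. Cxcl14, Il4, Il7 and Il17d at 8 h and Il13 at 24 h had peaks although they stayed under 1 FPKM in every library. The lists differed in length, with 4645, 10484 and 7083 peaks at 0, 8 and 24 h. In lists of equal length 2 members were lamin B1 + at 8 h and 1 at 24 h. With peaks at or above the median score 2 and 0 were, so the times at which a gene has a peak depend on the list.

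Promoter accessibility followed a like pattern. An ATAC peak within 500 bp of a start was found at 2 of 64 members in untreated cells (3.12%, interval 0.861% to 10.7%), against 32.4% of all genes, and at 2 at 8 h, against 26.6%. At 24 h there were 13 (20.3%, interval 12.3% to 31.7%), against 49.6%. The deposited lists hold 9782, 10340 and 33811 ATAC peaks at 0, 8 and 24 h, so more genes had a peak at 24 h in the whole table too, and in lists of equal length 2 members had one at 24 h. The genes with a promoter peak at all times were Cxcl1 and Ccl8. Those with one at 24 h only were Ccl7, Cx3cl1, Cxcl5, Cxcl10, Cxcl17, Il6, Il7, Il11, Il15, Il17d and Il24, so that genes which fell (Cx3cl1, Cxcl5) and genes which rose (Ccl7, Il11) both appear. Of the members that passed the expression limit, 10 of 19 had a promoter peak at 24 h (52.6%), against 87.2% of all genes that passed. Ccl20, Il33, Il34, Cxcl12, Cxcl16 and Il18 had none there at any time, although Il34 had an intronic peak at each time and Il33 one at 24 h.

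Many members lie in groups with less than 100 kb between neighbours. The one with Ccl2, Ccl7, Ccl11, Ccl12, Ccl8 and Ccl1 over 270 kb of chromosome 11 held 2, 4 and 10 ATAC peaks at 0, 8 and 24 h and no lamin B1 peak. Its peak at Ccl8 was in an exon at 0 and 8 h and over the start at 24 h, when it had a score of 484. A peak of Ccl2 lay upstream, before the first base of the group and so not among those counted, centred at -2386 bp from the start in untreated cells and at -2632 bp at 24 h. Cxcl5, Cxcl3, Cxcl15, Cxcl1 and Cxcl2 spanned 147 kb of chromosome 5, with 2, 2 and 5 ATAC peaks and 1 lamin B1 peak at 8 h, that of Cxcl1. In this group Cxcl5 and Cxcl1 were expressed and fell, while Cxcl3 and Cxcl15, which lie between them, and Cxcl2, on the far side of Cxcl1, stayed under 1 FPKM and had no promoter peak. Cxcl1, Cxcl2 and Cxcl3 share the NF-κB match printed above for Cxcl1 and Cxcl3. Their levels differed by more than 100 FPKM in untreated parental cells, where the assignment of reads shared by related genes is not known. A link between the match and the level was not tested.

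**Figure D5:**
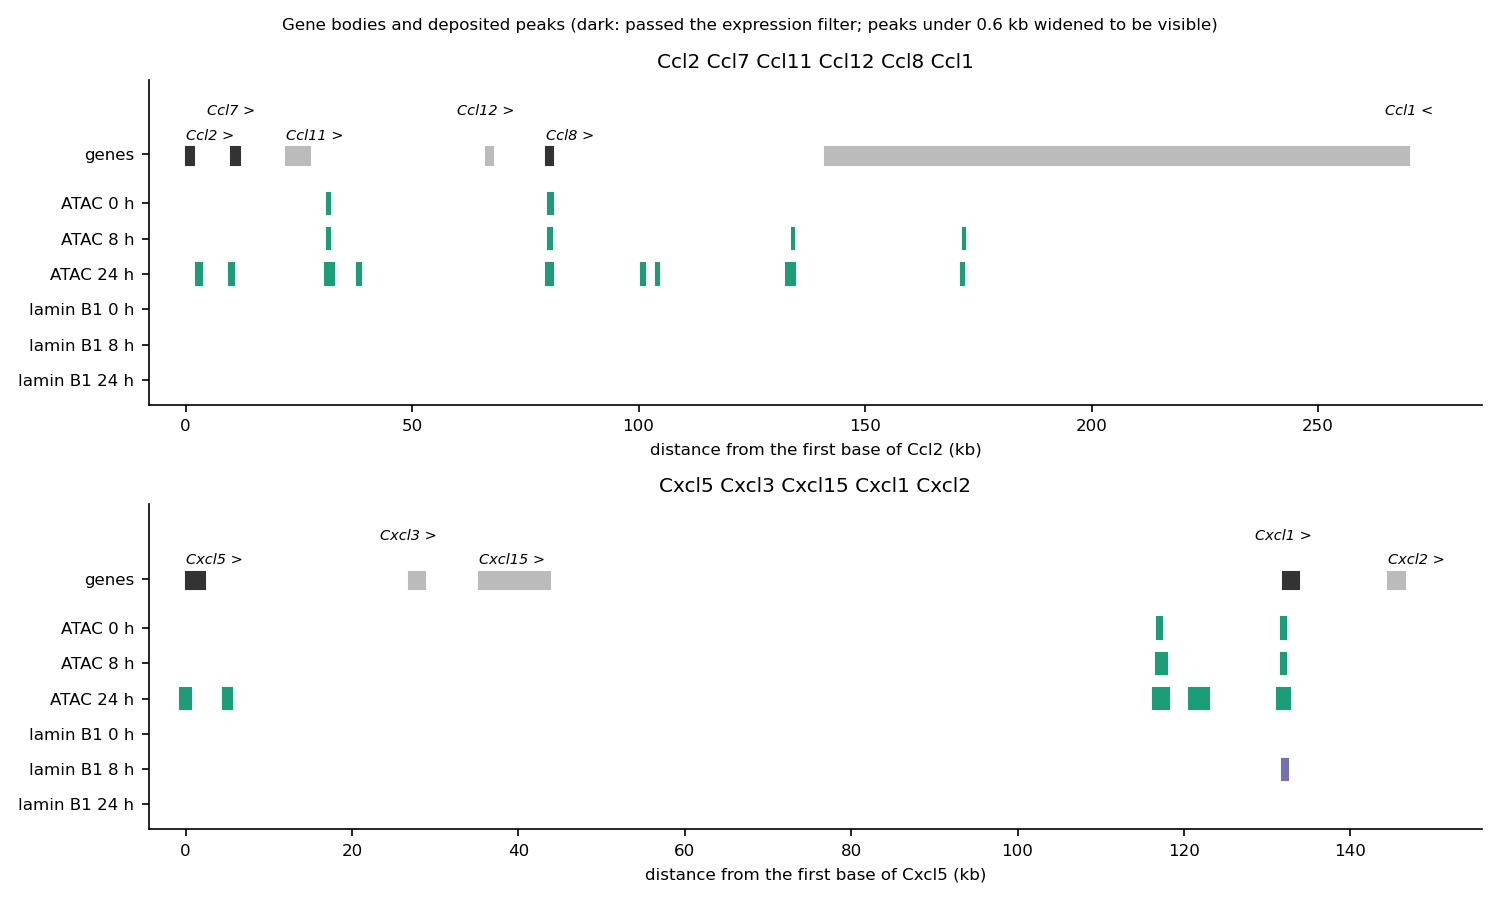
Gene bodies and deposited ATAC and lamin B1 peaks at 0, 8 and 24 h over the Ccl2 group (270 kb, top) and the Cxcl5 group (147 kb, bottom), by distance in kb from the first base of the first gene. Dark genes passed the expression limit, grey genes did not, arrowheads give the strand, and peaks under 0.6 kb are drawn wider than they are; ATAC peaks number 10 and 5 at 24 h, and the 1 lamin B1 peak is that at Cxcl1 at 8 h.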

How the data were processed

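RNA-seq was done on 18 libraries of NMuMG cells, and lamin B1 ChIP-seq and ATAC-seq on 1 library per time. The authors deposited FPKM values per gene, in a table for parental and a table for infected cells, and lists of peaks with coordinates and MACS scores. The deposited FPKM tables hold no counts, so depth is unknown beyond a relative estimate and no counting interval can be given for a level. The submitters' processing notes name Bowtie, TopHat and Cufflinks and the build mm9, with versions not given in the sources used here. How reads shared by related genes were assigned is also not given there, which bears on neighbours such as Cxcl1, Cxcl2 and Cxcl3.

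FPKM values were tested with limma 3.58.1 in R 4.3.3 on log2(FPKM + 1), with a trend in the prior variance. Each fit took all libraries of 1 table and all genes at 1 FPKM or more in at least 2 libraries (11309 and 11450 genes), and p-values were adjusted over them by the method of Benjamini and Hochberg, with a threshold of 0.05. The scripts were tested on simulated data. Peaks of the deposited lists were placed on the GENCODE M1 gene models with Python 3.11.15, with 2500 bp upstream of a gene counted for lamin B1 and 500 bp around a start for ATAC. The alternatives were a constant of 0.1, no filter, quantile normalization, a fit restricted to the compared groups, a replicate block, each library left out in turn, other peak windows, higher-scoring peaks and lists of equal length. Lamin B1 lists held 4645, 10484 and 7083 peaks at 0, 8 and 24 h, with no score under 50.

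Every member that passed the expression limit was named, with values in each library for those called at least once or with a group mean of 5 FPKM or more. Of each pathway list at most 4 genes were named, those with the largest absolute difference in parental cells at 24 h among called genes with a group mean of 5 FPKM or more. No replicate numbers were given for the parental columns. Samples were grouped by their labels, and replicates are separate libraries that the methods of the study call biological. The receptors of single ligands were named after their values were seen. Members and lists were chosen with earlier results of these data known. The Hi-C samples were not analysed here.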

Additional observations from a re-analysis of the deposited data

Results flagged for a closer look

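The response to TGF-β differed between KD and control cells by the interaction term of the limma fit at 4 points, each with 2 libraries per group. Ccl8 had a more negative response in KD cells at 8 h (-0.74 ± 0.14 on the log2 scale, 95% interval -1.06 to -0.42, adjusted p = 0.0315) and at 24 h (-0.85 ± 0.14, -1.17 to -0.53, 0.0178). Its mean went from 0.369 FPKM to 0.217 FPKM at 8 h and 1.57 FPKM at 24 h in KD cells, levels at which the constant of 1 weighs on the difference. Ccl2 had a more positive response in KD cells at 24 h (0.69 ± 0.15, 0.35 to 1.03, adjusted p = 0.0401), where its mean went from 120 FPKM to 172 FPKM. Il33 fell less in KD cells at 24 h (1.23 ± 0.20, 0.78 to 1.67, adjusted p = 0.0157), from 46.6 FPKM to 7.2 FPKM.

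The call of Ccl8 at 8 h was lost in 7 of 8 omissions of 1 library, all but that of the second untreated control library, with adjusted p of 0.0614 to 0.124. At 24 h the call of Ccl2 was lost in 5 of 8 (0.0589 to 0.148), namely without either untreated KD library, either 24 h control library or the second 24 h KD library. That of Ccl8 at 24 h was lost in 3 of 8 (0.0596 to 0.0923), without the first untreated KD library or either 24 h control library, and that of Il33 in 2 of 8 (0.0688 and 0.078), without either untreated KD library. In a fit of only the groups compared, none of the 24 h calls passed (adjusted p = 0.133 for Ccl2, 0.0688 for Ccl8 and 0.0824 for Il33). With a constant of 0.1 in place of 1, the Ccl8 difference at 24 h moved from -0.85 to -1.39 and was not called (adjusted p = 0.0697). That of Ccl2 at 24 h was not called without a filter (0.69, adjusted p = 0.0661) or after quantile normalization (0.57, 0.0751).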

How the results depend on the processing

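Of 109 calls of single members, quantile normalization kept 107, a constant of 0.1 kept 106 and the absence of a filter kept 101, a fit of only the groups compared kept 92 of 100, and 0 calls were reversed by any alternative. Without a filter 22 of 45 members tested were called in parental cells at 24 h (14 of 18 in the main fit). In control cells at 24 h they were 22 of 51 (14 of 19), and between untreated KD and control cells 3 of 51 (6 of 19). The share of all genes called without a filter was not counted. A fit of only the groups compared called 3 members between KD and control cells at 24 h (6) and 0 in the response difference at 24 h (3), and a constant of 0.1 called 2 in that at 8 h (1). The cause was not tested. Leaving out 1 library gave 11 to 12 calls in parental cells at 8 h and 11 to 13 at 24 h, 15 to 16 and 12 to 16 in control cells, and 13 to 14 at both times in KD cells. Between KD and control cells it gave 2 to 8 calls untreated, 4 to 5 at 8 h and 3 to 8 at 24 h, and for the response differences 0 to 3 and 0 to 5. An arm of 1 library was assumed to vary like the other groups. Deviations of same-numbered libraries of the infected cells correlated at r = -0.135 to 0.368 over 15 pairs of groups, 2 of them over 0.1. These 2 were control with KD cells at 24 h (0.368) and untreated with 24 h KD cells (0.184). Whether the numbers pair libraries cannot be told from these values. A fit with a replicate block gave 17 and 14 calls in control cells and 14 and 14 in KD cells, as in the fit without it. It also gave the same 6, 8 and 6 calls between KD and control cells, and 1 and 3 in the response differences. No paired analysis was possible for parental cells because their columns carry no replicate numbers. After quantile normalization the share of higher among all genes called moved from 30.2% to 46% in control cells at 8 h, 36.1% to 50% at 24 h, 33.9% to 46% in KD cells at 8 h and 39.8% to 50.1% at 24 h. With peaks at or above the median score, 2 and 0 members were lamin B1 + at 8 and 24 h and 1, 1 and 5 had a promoter ATAC peak at 0, 8 and 24 h. With lists of equal length 2 and 1 were lamin B1 + at 8 and 24 h and 2 had an ATAC peak at 24 h, and within 2500 bp of a start 5 and 20 had one at 0 and 24 h. Depth, unknown here, limits members under 1 FPKM most.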
